A study of Homo sapiens with 30 samples.

Results

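The tumour suppressor p53 is a transcription factor whose own activity is held down by MDM2 and released by stress. In DNA-damaged cells it raises genes for cell cycle arrest, DNA repair and apoptosis, and it lowers many cell division genes indirectly. In hypoxia the HIF factors raise glycolysis and oxygen-delivery genes, and p53 has been described as stabilised under very low oxygen. The question here was how far the hypoxia response of 1 colon carcinoma line depended on p53.

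The data were 6 arrays out of 30 in the series, all from HCT116, an established colon carcinoma line grown as a monolayer. The groups were p53-null HCT116 cells at 0, 12 and 24 h of oxygen below 0.01%, and p53 wild-type HCT116 cells at the same times, with 1 array per genotype and time. The labels give no separate cultures within a group, no clone and no other treatment, so the 2 genotypes also stand for 2 cell stocks whose other differences cannot be told apart from p53. The interaction was the change from 0 h in p53 wild-type cells minus the change from 0 h in p53-null cells, on the log2(intensity + 16) scale, so a positive value means a more positive change in p53 wild-type cells. Both times used the same pair of 0 h arrays. Genes past 1 with the same sign at both times were singled out for description, and 43 of 7614 tested genes (0.565%) met this limit, 28 positive (0.368%) and 15 negative (0.197%).

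Of the 12690 genes with a single gene symbol, the 7614 tested were the brighter 60% by mean over the 30 arrays. Of the HCT116 probe sets 31.2% to 36.2% per array held a null in place of a value, and nulls were taken as 0. Of 11 epithelial and colon markers on the arrays, 5 were above the median gene (nulls as 0) on every HCT116 array. These were KRT8, KRT18, KRT19, CDX2 and LGALS4, while GPA33 and KRT20 were null on all 6. Summed colon marker intensity was 2996 to 3804 on p53-null arrays and 3023 to 3977 on p53 wild-type arrays. Of the leukocyte, endothelial and fibroblast marker lists, 3 of 7, 6 of 8 and 4 of 8 genes were above the median gene, and the leukocyte sum was 1182 to 1271 on p53-null arrays and 1194 to 1267 on p53 wild-type arrays. The genotype labels were not checked here.

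The p53-null 0 h and p53 wild-type 24 h arrays stood apart from the rest. On the p53-null 0 h array 25 tested genes were the highest of the 6 by more than 1 log2 unit, against 0 to 2 genes on each other HCT116 array. It was the highest of all 30 arrays by more than 0.5 for 61 genes, against 0 to 3 on the other HCT116 arrays. Its spiked CreX control read 1331 against 1757 to 2037, its Alu control 1131 against 1463 to 1781, and its GAPDH 3'/5' ratio 1.12 against 1.17 to 1.31. The p53 wild-type 24 h array was the lowest of the 6 by more than 0.5 for 48 genes, against 2 to 18 on each other HCT116 array, and had the highest share of nulls (36.2%). The part of these values in the results was not tested. Every interaction below uses the p53-null 0 h array and every 24 h interaction also the p53 wild-type 24 h array, so the genotype difference at each time is given beside it, and the 4 hypoxic arrays were also compared without any 0 h array.

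One promoter carries the sequence most relevant to p53. DDB2 encodes a damaged-DNA binding subunit of nucleotide excision repair. Among the 43 genes it is the 1 that is also on the list of 93 known p53 targets used here. Its RefSeq promoter (GRCh38.p14, chr11:47214724-47215003, plus strand, 250 bases before to 30 after the start of transcription) is printed with 2 matches to the p53 consensus decamer in capitals, beginning at bases 6 and 17 after the start and separated by 1 base.
DDB2: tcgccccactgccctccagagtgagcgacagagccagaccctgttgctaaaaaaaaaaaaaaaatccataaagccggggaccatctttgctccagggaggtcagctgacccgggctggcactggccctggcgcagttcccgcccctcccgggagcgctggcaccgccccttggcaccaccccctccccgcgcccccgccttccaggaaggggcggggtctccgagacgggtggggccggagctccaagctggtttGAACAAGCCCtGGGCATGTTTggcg
A pair of p53 decamers with at most 13 bases between them occurred in 10 of 35116 RefSeq promoters (0.0285%). A single decamer, on its own, occurred in 2329 of them (6.63%). Of the 43 genes, 39 had a promoter in the table, and DDB2 was the 1 gene with the pair. DDB2 has 2 promoter windows there, of which 1 holds it. A match is a description of letters and not a site.

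The positive genes were mostly genes with one high array. Of the 28, 24 were highest on the p53-null 0 h array, both among the 6 HCT116 arrays and among all 30. Of all 7614 tested genes, 1201 were highest there among the 6 and 639 among all 30. A high value on that array raises both interactions by their definition, so these counts follow partly from the limit. On that array the 24 genes stood at 2.06 to 4.74 times the median of the other 5, with a median ratio of 3.04. In 23 of these 24 the p53 wild-type 0 h array came second. On the hypoxic arrays the 2 genotypes were close in these 24 genes, with differences (p53 wild type minus p53-null) of -0.13 to 0.48 at 12 h and 0.01 to 0.45 at 24 h. Most tested genes (7265 of 7614) were within 0.5 at both hypoxic times.

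**Figure D1:**
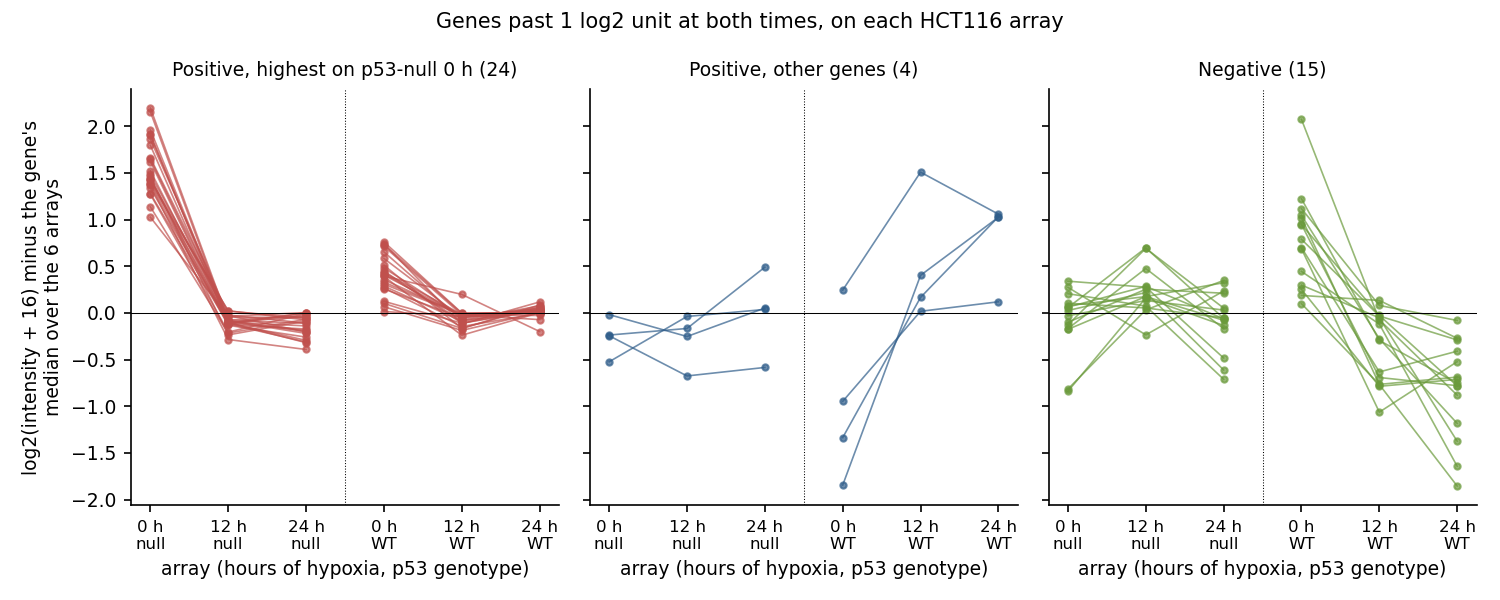
Log2(intensity + 16) of each of the 43 genes relative to its own median over the 6 HCT116 arrays, p53-null arrays left of p53 wild-type arrays (WT), each line a gene, in 3 panels by group (24, 4 and 15 genes). In the 24 genes of the first panel the p53-null 0 h array stands above the rest.

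INTS13, a subunit of the Integrator RNA-processing complex, read 2733, 552 and 539 at 0, 12 and 24 h in p53-null cells, against 967, 576 and 591 in p53 wild-type cells. SENP1, a SUMO protease known to act on HIF1A, read 958, 231 and 239 in p53-null cells, against 302, 229 and 250 in p53 wild-type cells. ZFX, a zinc finger transcription factor, read 950, 186 and 158 in p53-null cells, against 352, 201 and 201 in p53 wild-type cells. In each of the 3 genes the p53-null 0 h value was the high one, and the groups nearly met at 12 h and 24 h. The interaction of INTS13 was 1.56 at 12 h and 1.65 at 24 h (limma mean 1.61 ± 0.0789 SE, adjusted p = 0.00468).

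The same shape held for genes with other roles. SRRM2, a splicing factor of nuclear speckles, read 1116, 333 and 371 in p53-null cells, against 475, 380 and 410 in p53 wild-type cells. SLC36A4, an amino acid transporter, read 1020, 262 and 275 in p53-null cells, against 385, 266 and 290 in p53 wild-type cells. PDE7B, a cyclic AMP phosphodiesterase, read 968, 222 and 201 in p53-null cells, against 344, 209 and 252 in p53 wild-type cells. The high value was again the p53-null 0 h one in these 3. MEAF6, a subunit of histone acetyltransferase complexes, read 497, 162 and 161 in p53-null cells, against 184, 154 and 173 in p53 wild-type cells. MIR1-1HG, the host transcript of a microRNA, read 1006, 261 and 245 in p53-null cells, against 406, 256 and 270 in p53 wild-type cells. CHORDC1, an HSP90 co-chaperone, read 1884, 558 and 512 in p53-null cells, against 992, 589 and 592 in p53 wild-type cells.

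Other probe sets for these genes gave other values. Of the 24 genes, 6 had a further probe set listed on all 6 arrays, 9 probe sets in all, and 0 of the 9 passed 1 at both times. Their interactions ranged from -1.41 to 0.27 at 12 h and from -0.48 to 0.54 at 24 h. The ends at -1.41 and -0.48 came from a dim RICTOR probe set (intensities 7 to 46). The end at 0.54 came from a dim MEAF6 probe set (2 to 13). A second SRRM2 probe set read 212, 252 and 252 in p53-null cells, against 227, 209 and 227 in p53 wild-type cells.

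The other 4 positive genes, F3, DUSP1, DDB2 and ECM1, were highest on another array. DDB2 read 46, 30 and 33 at 0, 12 and 24 h in p53-null cells, against 71, 193 and 137 in p53 wild-type cells. The p53 wild-type values lay above the p53-null values at all 3 times, with differences of 0.47, 2.18 and 1.66. Its interaction was 1.72 at 12 h and 1.19 at 24 h (limma mean 1.45 ± 0.283 SE, adjusted p = 0.0766), which did not pass the threshold of 0.05. On the 4 hypoxic arrays alone DDB2 was 3.79-fold higher in p53 wild-type cells (limma log2 difference 1.92 ± 0.158 SE, adjusted p = 0.0221). Those 4 arrays also entered the limit of 1 that picked DDB2, so this difference is no separate support. Its error comes from the gap between the 12 h and 24 h differences, not from separate cultures. Among the 28 positive genes DDB2 was the 1 gene with a genotype difference above 1 at both hypoxic times. The call was lost without limma's intensity trend (adjusted p = 0.159), without centring (0.082), after quantile normalization (0.0522) and with the mean over probe sets (0.104).

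The other 3 had a p53 wild-type value below the p53-null value at 0 h. F3, tissue factor, the cell-surface starter of blood clotting, read 24, 40 and 43 in p53-null cells, against 0, 60 and 101 in p53 wild-type cells. Its interaction was 1.78 and 2.35 (limma adjusted p = 0.0519), with genotype differences of -1.34, 0.44 and 1.01. These sizes depend on the pseudocount of 16, since F3 was listed at 0 on 1 array, and the mean interaction of 2.07 became 1.42 and 0.92 with pseudocounts of 32 and 64. DUSP1, a phosphatase that switches off MAP kinases, read 164, 173 and 282 in p53-null cells, against 68, 222 and 417 in p53 wild-type cells. DUSP1 passed the test (limma mean interaction 1.57 ± 0.156 SE, adjusted p = 0.0098), and its order of genotypes turned between 0 h and 12 h. ECM1, a secreted matrix protein, was dim, at 24, 18 and 26 in p53-null cells, against 5, 25 and 28 in p53 wild-type cells.

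**Figure D2:**
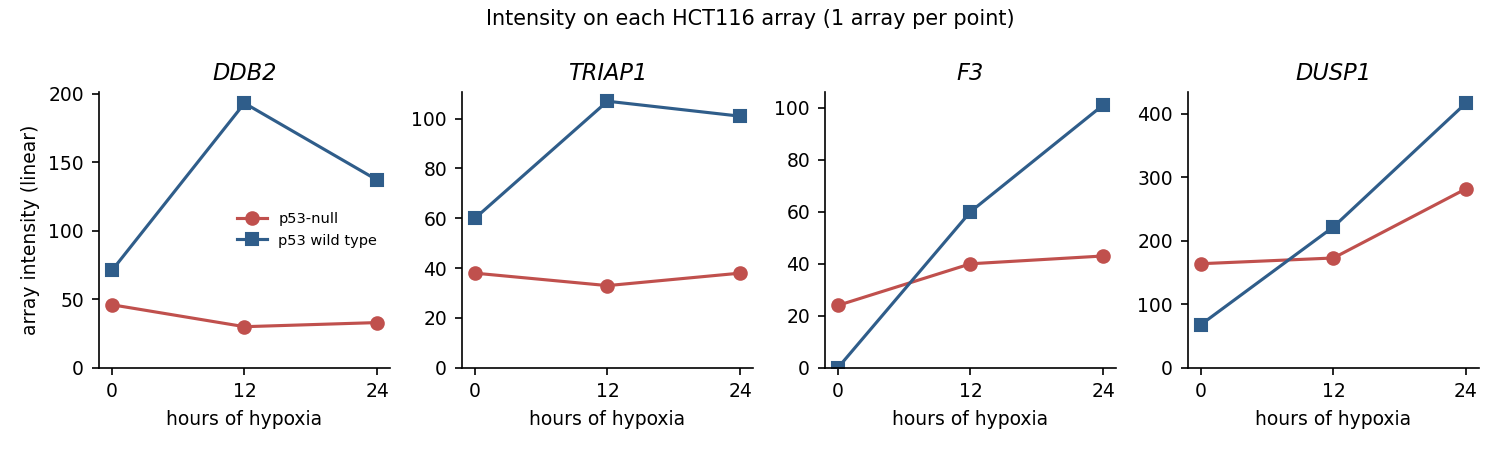
Linear array intensity of DDB2, TRIAP1, F3 and DUSP1 against hours of hypoxia in p53-null (circles) and p53 wild-type (squares) HCT116 cells, 1 array per point, vertical axes starting at 0. For DDB2 and TRIAP1 the p53 wild-type points lie above the p53-null points at every time, while for F3 and DUSP1 they lie below at 0 h and above at 12 h and 24 h.

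The 15 negative genes were dim. Their listed intensities had a median of 27 and reached 135, 7 of the 15 had a null among the 6 arrays, and 0 were called by limma, where 18 of all tested genes (0.236%) were called negative and 1218 genes had an unadjusted p under 0.05 in either direction. In 10 of the 15 the p53 wild-type 0 h array was the highest, against 1079 of all 7614 tested genes. A high value on that array lowers both interactions by their definition, so this count follows partly from the limit. USP33, a deubiquitinating enzyme, read 42, 40 and 36 in p53-null cells, against 110, 28 and 16 in p53 wild-type cells, but a second USP33 probe set gave interactions of -0.14 and 0.00. SHLD2, a subunit of the shieldin complex that protects broken DNA ends, read 75, 86 and 79 in p53-null cells, against 135, 44 and 54 in p53 wild-type cells. On the probe sets used, in both genes the p53 wild-type array was the higher one at 0 h and the lower one at 12 h and 24 h.

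ZNF655, a zinc finger protein, read 9, 29 and 40 in p53-null cells, against 60, 27 and 20 in p53 wild-type cells. TOPBP1, a scaffold of the replication checkpoint, read 22, 51 and 27 in p53-null cells, against 35, 24 and 0 in p53 wild-type cells. AHCTF1, a nuclear pore assembly protein, read 32, 40 and 28 in p53-null cells, against 58, 6 and 16 in p53 wild-type cells. These values sit near the pseudocount of 16, and with a pseudocount of 64 the count of negative genes was 1. ATP2C1, a Golgi calcium pump, named after its values were seen, was the 1 negative gene below -1 between genotypes at both hypoxic times, at 38, 53 and 51 in p53-null cells, against 46, 18 and a null in p53 wild-type cells.

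No gap in the values separated the genes on either side of the limit of 1. Just inside it were CELF5 (1.01 at 12 h and 1.04 at 24 h) and PQBP1 (1.01 and 1.25). Just outside were TMEM64 (-1.52 and -0.997) and FOXD1 (0.99 and 2.19). At 12 h alone 34 genes were above 1 and 40 below -1, and at 24 h alone 60 and 47.

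**Figure D3:**
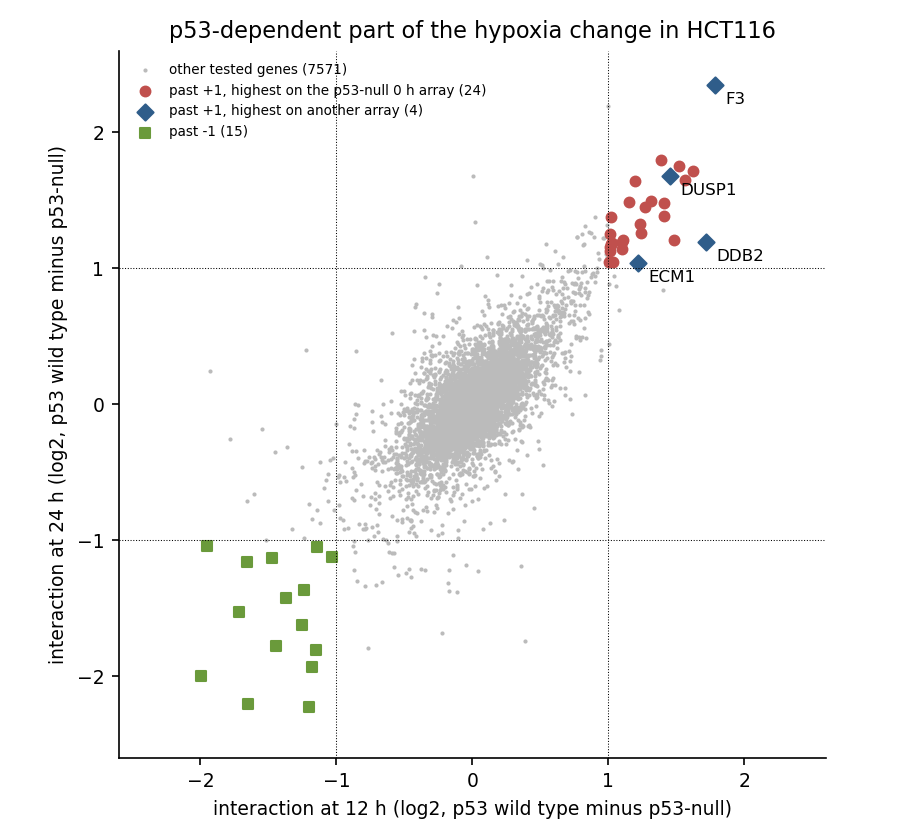
Interaction at 24 h against interaction at 12 h, in log2 units, for the tested genes, p53 wild type minus p53-null. Points past 1 at both times are 24 genes highest on the p53-null 0 h array, 4 other positive genes and 15 negative genes, and 0 genes were past 1 with opposite signs.

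Across all genes the hypoxia changes of the 2 genotypes were correlated. The p53-null and p53 wild-type changes gave Pearson's r = 0.55 at 12 h and r = 0.607 at 24 h, across genes, which are not independent replicates. Of 41 tested HIF target and glycolysis genes, 37 had a positive change in p53-null cells and 39 in p53 wild-type cells at 12 h, and 36 and 38 in the same order at 24 h. The SD over genes of the genotype difference was 0.235 at 0 h, 0.178 at 12 h and 0.216 at 24 h.

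The interaction averaged over 12 h and 24 h was tested with limma on the 6 arrays. It called 128 genes (1.68%), 110 positive (1.44%) and 18 negative, but 0 genes when eBayes was run without an intensity trend (998 at an unadjusted p under 0.05) or on the mean over probe sets (1087). Each gene had 1 residual degree of freedom, the gap between its 12 h and 24 h interactions, so the p-value does not measure the spread of the 0 h arrays, and it uses the same values as the limit of 1. Of the 110 positive calls 107 were highest on the p53-null 0 h array, against 1201 of all 7614 tested genes. Genotype differences within 0.5 at both hypoxic times held for 109 of the 110, near the share of all tested genes (7265 of 7614). All 18 negative calls were likewise within 0.5 on the hypoxic arrays and higher in p53 wild-type cells at 0 h, by 0.31 to 1.28.

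Genes of the translation machinery were among these 18. They included 7 of 56 tested genes for cytosolic ribosomal proteins, among them RPLP1 and RPS29, where 0.236% of all tested genes were called negative. Another was EEF1A1, the elongation factor that delivers aminoacyl-tRNA. The 18 were bright, with a median listed intensity of 1569.5 against 278 for all tested genes. EEF1A1 read 1475, 2478 and 2623 in p53-null cells, against 1973, 2274 and 2365 in p53 wild-type cells (limma mean interaction -0.52 ± 0.0487 SE, adjusted p = 0.00908). Of 56 tested ribosomal protein genes, 48 (85.7%) were negative at both times, against 36.0% of all tested genes, with medians of -0.20 and -0.25. Their median genotype difference was 0.24 at 0 h, 0.04 at 12 h and 0.00 at 24 h, so the difference lay on the 0 h arrays. With 1 array per genotype there, array and genotype cannot be told apart. CXCL8, a neutrophil-attracting chemokine, read 146, 160 and 150 in p53-null cells, against 383, 219 and 171 in p53 wild-type cells (limma mean -0.98 ± 0.157 SE, adjusted p = 0.0444).

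Without any 0 h array, limma on the 4 hypoxic arrays, a comparison added after the data were seen, called 17 genes (0.223%). Of these 12 were higher and 5 lower in p53 wild-type cells, and 963 genes had an unadjusted p under 0.05. The only residual of each gene was the gap between its genotype differences at 12 h and 24 h. The SE and p-value of this fit therefore do not measure the spread between cultures. By limma 0 genes were called without the intensity trend (838 at an unadjusted p under 0.05), without centring (886), after quantile normalization (909) or on the mean over probe sets (898). In 11 of the 17 the 0 h arrays already differed the same way by over 50% of the hypoxic difference. MARCKS, an actin-binding substrate of protein kinase C, was one of them, at 26, 29 and 8 in p53-null cells, against 146, 139 and 79 in p53 wild-type cells.

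The other 6 were DDB2, TRIAP1, ACTA2, RNF181, SLC2A3 and ITPRID2, named after their values were seen except for those in the gene lists. TRIAP1, an inhibitor of apoptosis raised by p53, read 38, 33 and 38 in p53-null cells, against 60, 107 and 101 in p53 wild-type cells (hypoxic limma difference 1.23 ± 0.137 SE, adjusted p = 0.0391). ACTA2, smooth muscle actin, read 62, 53 and 66 in p53-null cells, against 77, 155 and 138 in p53 wild-type cells (1.12 ± 0.133 SE, limma adjusted p = 0.0472). RNF181, a ubiquitin ligase, read 215, 278 and 293 in p53-null cells, against 200, 431 and 414 in p53 wild-type cells. All 3 were higher in p53 wild-type cells at both hypoxic times, with interactions of 0.85 and 0.66 for TRIAP1, 1.08 and 0.70 for ACTA2, and 0.72 and 0.61 for RNF181. SLC2A3, a high-affinity glucose transporter, ran the other way, at 238, 481 and 518 in p53-null cells, against 205, 274 and 322 in p53 wild-type cells (-0.71 ± 0.0642 SE, limma adjusted p = 0.0255). ITPRID2 read 506, 607 and 621 in p53-null cells, against 457, 371 and 414 in p53 wild-type cells.

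Few known p53 targets were called. Of 93 listed targets 52 were tested, and 29 of the 52 (55.8%) were positive at both times, against 38.8% of all tested genes. Their median interaction was 0.08 at 12 h and 0.08 at 24 h, where all tested genes had 0.00 and 0.01. Above 0.5 at both times were 5 of 52 (9.62%, against 2.64% of all tested genes): DDB2, TRIAP1, CASP6, TGFA and FBXO22. The interaction test called 1 of 52 (1.92%), FBXO22, positive, near the 1.44% of all tested genes, and 0 negative. The hypoxic arrays called 3 of 52 (5.77%, against 0.158% of all tested genes), DDB2, TRIAP1 and GDF15, higher in p53 wild-type cells.

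By role, the arrest genes had the lowest medians. Of 9 tested arrest genes 2 were positive at both times, with medians of -0.03 and -0.11. CDKN1A, the p21 inhibitor of cyclin-dependent kinases, read 212, 236 and 227 in p53-null cells, against 313, 336 and 229 in p53 wild-type cells, an interaction of -0.03 and -0.48. PLK2, a polo-like kinase, was dim, at 22, 23 and 23 in p53-null cells, against 0, 15 and 4 in p53 wild-type cells. The 5 tested genes of p53 feedback were positive at both times, with medians of 0.10 and 0.23. MDM2, the ubiquitin ligase that degrades p53, read 245, 284 and 235 in p53-null cells, against 231, 285 and 256 in p53 wild-type cells, which overlap. CDKN1A, MDM2, BBC3, PHLDA3 and GDF15 are given outside the rule for named genes, as familiar targets.

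Of 10 tested apoptosis genes 6 were positive at both times, with medians of 0.15 and 0.11. BBC3, the BH3-only protein PUMA, read 573, 536 and 537 in p53-null cells, against 636, 624 and 564 in p53 wild-type cells. CASP6, an executioner caspase, read 71, 62 and 59 in p53-null cells, against 51, 70 and 74 in p53 wild-type cells (limma adjusted p = 0.278). BBC3 was higher in p53 wild-type cells at all 3 times and CASP6 at 12 h and 24 h, but neither passed a test. APAF1, the apoptosome scaffold, went the other way at 24 h, at 28, 49 and 68 in p53-null cells, against 58, 61 and 42 in p53 wild-type cells (-0.49 and -1.24, limma adjusted p = 0.319).

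Metabolic targets and a mixed group of secreted, surface and other proteins were similar in size. TIGAR, a fructose-bisphosphatase that slows glycolysis, read 168, 134 and 103 in p53-null cells, against 160, 256 and 130 in p53 wild-type cells, with interactions of 0.94 and 0.40. A second TIGAR probe set gave -0.07 and -0.70. Of 21 tested genes in the mixed group of secreted, surface and other proteins, 12 were positive at both times, with medians of 0.09 and 0.10. IGFBP3, which binds insulin-like growth factors, read 273, 249 and 253 in p53-null cells, against 256, 308 and 309 in p53 wild-type cells. TGFA, an EGF receptor ligand, read 57, 43 and 72 in p53-null cells, against 41, 54 and 95 in p53 wild-type cells. For IGFBP3 and TGFA the p53 wild-type value was the lower at 0 h and the higher at both hypoxic times, and neither passed the test (limma adjusted p = 0.185 and 0.249).

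GDF15, a stress-induced cytokine, differed by genotype at all 3 times. It read 867, 1147 and 1099 in p53-null cells, against 1407, 1661 and 1460 in p53 wild-type cells. Every p53 wild-type value lay above every p53-null value (hypoxic limma difference 0.48 ± 0.0386 SE, adjusted p = 0.0221), and the interaction was -0.14 and -0.24. FBXO22, a ubiquitin ligase subunit, the called target, followed the p53-null 0 h array, at 433, 153 and 147 in p53-null cells, against 262, 164 and 177 in p53 wild-type cells. Its adjusted p of 0.0468 by limma ran from 0.0502 to 0.143 under 5 other settings. A second, dimmer FBXO22 probe set (at most 157) gave interactions of 1.26 and 1.57, against 0.80 and 0.98 on the probe set used.

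**Figure D4:**
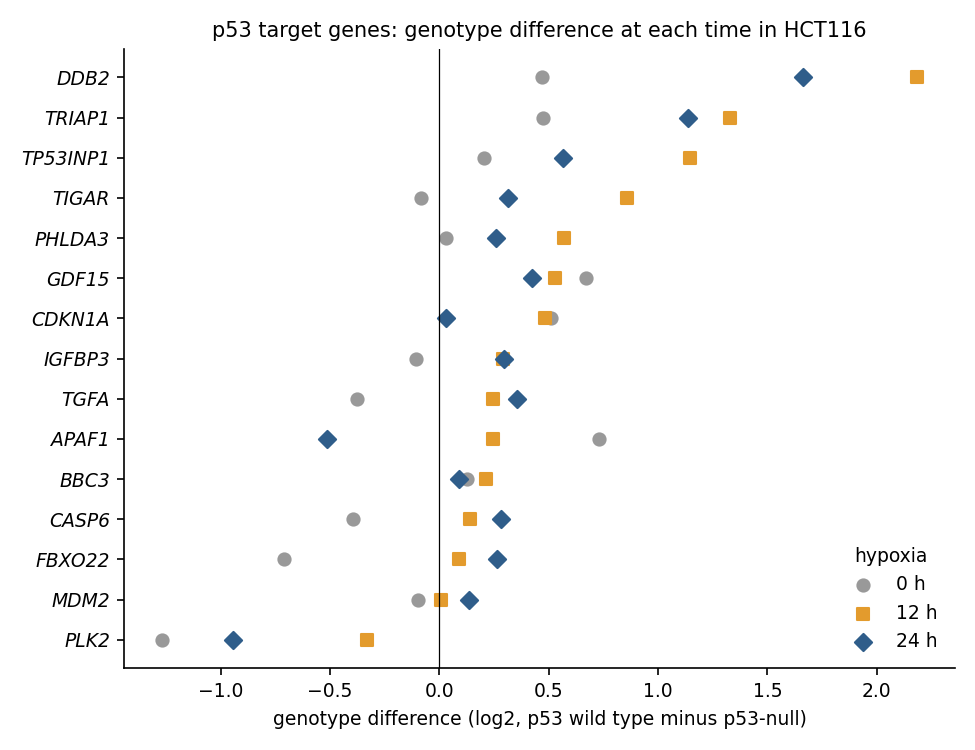
Genotype difference (log2, p53 wild type minus p53-null) of 15 p53 targets at 0 h, 12 h and 24 h, 1 array per genotype and time, ordered by the 12 h value. DDB2 lies furthest right at 12 h, at 2.18, and TRIAP1 follows at 1.33.

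Most cell division genes had lower values on the p53 wild-type 24 h array than on the p53-null 24 h array. Of 37 listed genes that p53 is known to repress through DREAM and related complexes, 18 were tested, and 17 of the 18 (94.4%) had a negative interaction at 24 h, against 48.3% of all tested genes. Below -0.5 at 24 h were 8 of 18 (44.4%, against 3.62% of all tested genes). At 12 h 13 of 18 were negative. The median change was -0.40 at 12 h and -0.45 at 24 h in p53-null cells, against -0.48 and -0.85 in p53 wild-type cells. The median genotype difference was -0.01 at 0 h, -0.08 at 12 h and -0.42 at 24 h, so the difference was on the 24 h arrays. The p53 wild-type 24 h array was the lowest of the 6 for 16 of the 18, a count not made for all tested genes. By more than 0.5 it was the lowest for 4 of the 18, against 48 of all 7614 tested genes. The part of that array in the pattern was not tested. The limma test, which takes both times together, called 0 of the 18. In RNA from whole cultures, fewer dividing cells and less RNA per cell cannot be told apart.

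KIF20A, a kinesin needed for cytokinesis, read 209, 85 and 68 in p53-null cells, against 254, 66 and 25 in p53 wild-type cells, an interaction of -0.54 and -1.26 (limma adjusted p = 0.243). TOP2A, the topoisomerase that untangles chromosomes before division, read 254, 150 and 206 in p53-null cells, against 309, 136 and 96 in p53 wild-type cells, an interaction of -0.37 and -1.21 (limma adjusted p = 0.308). CCNB1, the mitotic cyclin B1, chosen after its values were seen, read 315, 141 and 87 in p53-null cells, against 283, 108 and 19 in p53 wild-type cells. In all 3 the p53 wild-type 24 h array was the lowest of the 6. The exception to the sign at 24 h was CDCA3, at 0.17.

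The p53-repressed promoters are known for CCAAT boxes and for the element TTTGAA, bound by DREAM, and TOP2A and KIF20A are printed with any match, on either strand, in capitals (RefSeq, GRCh38.p14). TOP2A holds both elements, and KIF20A holds CCAAT on the other strand (ATTGG) and no TTTGAA in this window. TOP2A lies at chr17:40417867-40418146 on the minus strand and KIF20A at chr5:138178862-138179141 on the plus strand, each from 250 bases before to 30 after the start.
TOP2A: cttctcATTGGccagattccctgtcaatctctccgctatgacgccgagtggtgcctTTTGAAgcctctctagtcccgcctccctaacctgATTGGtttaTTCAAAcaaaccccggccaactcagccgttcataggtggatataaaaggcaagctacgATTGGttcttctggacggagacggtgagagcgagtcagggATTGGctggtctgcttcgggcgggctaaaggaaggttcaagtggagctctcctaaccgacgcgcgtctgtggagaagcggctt
KIF20A: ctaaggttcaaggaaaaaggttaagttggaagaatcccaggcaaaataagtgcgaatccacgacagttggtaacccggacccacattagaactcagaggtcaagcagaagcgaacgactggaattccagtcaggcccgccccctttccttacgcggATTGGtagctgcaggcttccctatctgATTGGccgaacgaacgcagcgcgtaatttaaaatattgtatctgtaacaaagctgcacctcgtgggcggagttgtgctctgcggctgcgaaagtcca
CCAAT on either strand occurred in 16 of 19 promoter windows (84.2%) of the 14 tested cell division genes with a promoter in the table, against 34.6% of 35116 promoters. TTTGAA occurred in 36.8% of these windows, against 15.2% of all. Base composition was not matched.

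**Figure D5:**
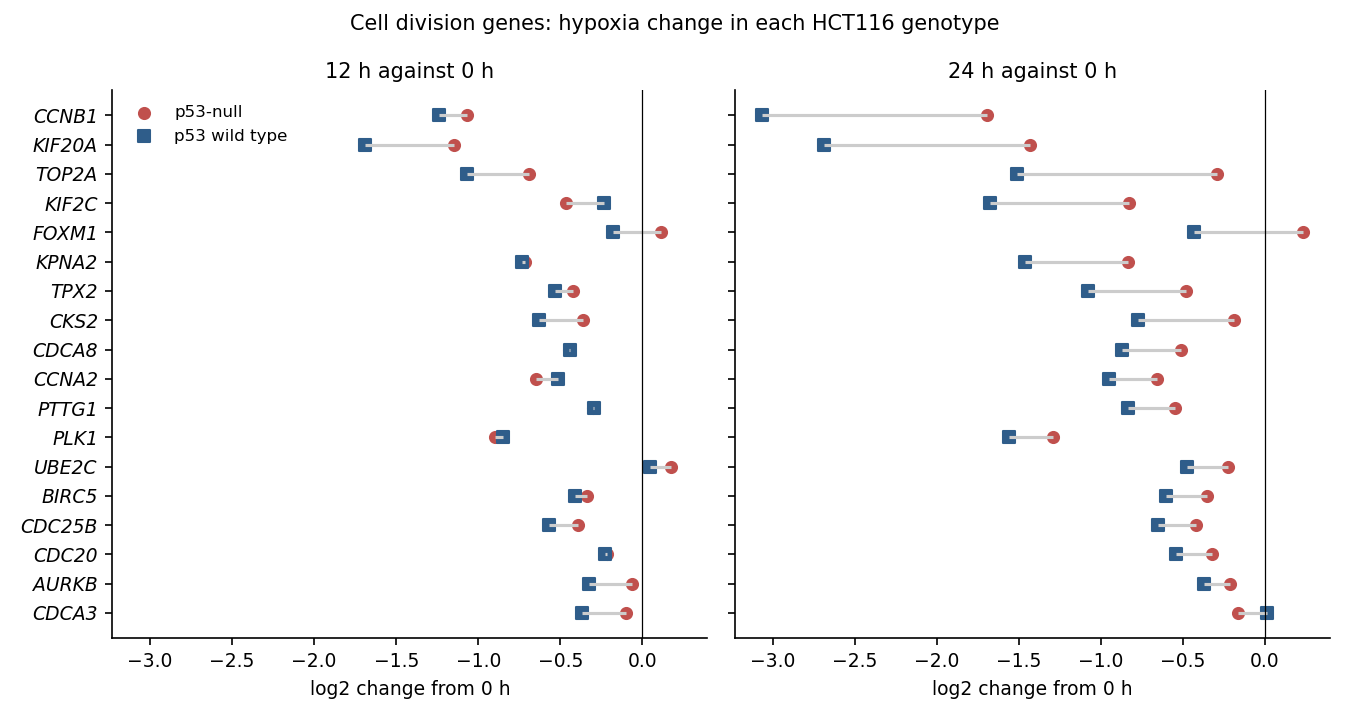
Log2 change from 0 h at 12 h (left panel) and 24 h (right panel) in 18 cell division genes, p53-null as circles and p53 wild type as squares, 1 array per point. At 24 h the p53 wild-type change lies below the p53-null change in 17 of 18 genes.

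S phase genes had medians nearer to 0. Of 18 tested, 14 (77.8%) were negative at 24 h, against 48.3% of all tested genes. The medians were -0.04 at 12 h and -0.19 at 24 h, and 0 were called by limma. The median genotype difference was 0.18 at 0 h, 0.09 at 12 h and 0.00 at 24 h, so the difference lay on the 0 h arrays. In p53 wild-type cells 15 of the 18 were higher at 0 h and 9 of the 18 at 24 h. RRM1, the large subunit of ribonucleotide reductase, read 87, 131 and 119 in p53-null cells, against 130, 122 and 65 in p53 wild-type cells. FEN1, a flap endonuclease of DNA replication, read 234, 274 and 366 in p53-null cells, against 322, 355 and 261 in p53 wild-type cells. In both the p53 wild-type value was the higher at 0 h and the lower at 24 h, and neither passed the test (limma adjusted p = 0.208 and 0.529).

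HIF targets and glycolysis genes had positive median changes in both genotypes. For 23 tested HIF targets the median change was 0.32 at 12 h and 0.41 at 24 h in p53-null cells, against 0.40 and 0.43 in p53 wild-type cells. For 18 tested glycolysis genes it was 0.93 and 1.02 in p53-null cells, against 0.96 and 1.02 in p53 wild-type cells. NDRG1 and GPI were called positive. NDRG1, a hypoxia-induced stress gene, read 643, 1424 and 1418 in p53-null cells, against 425, 1305 and 1378 in p53 wild-type cells, so its interaction (limma mean 0.53 ± 0.0754 SE, adjusted p = 0.0321) lay mainly in the 0 h arrays. CA12, a carbonic anhydrase, read 33, 43 and 44 in p53-null cells, against 35, 64 and 111 in p53 wild-type cells (0.40 and 1.06, limma adjusted p = 0.361). GYS1, muscle glycogen synthase, read 178, 347 and 211 in p53-null cells, against 169, 420 and 348 in p53 wild-type cells.

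H1299, a non-small cell lung carcinoma line without p53, and H1299 with p53 put back, were the other pair in the series, with 1 array each at 0 h and 24 h. The arrays labelled H1299 p53+ went against their hypoxia labels. Of the 41 HIF target and glycolysis genes, 7 had a positive change on the arrays labelled p53+ and 36 in p53-null H1299. ENO2, a glycolytic enolase, read 269 at 0 h and 85 at 24 h on the arrays labelled H1299 p53+, and 95 at 0 h and 243 at 24 h in p53-null H1299. The changes of the 2 H1299 genotypes correlated at r = -0.61 across genes. DDB2 read 60 and 66 on the arrays labelled H1299 p53+, and 51 and 72 in p53-null H1299. The H1299 interaction called 481 genes (6.32%), with the spread taken from HCT116, the difference of the interaction between the lines called 226 (2.97%), and neither is read as a second measure of p53.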

How the data were processed

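The HCT116 columns held linear intensity values, whole numbers with nulls, as deposited by the authors in a table of 30 arrays (35409 probe sets). The scaling behind them is not given in the sources used here, and the meaning of a null is not stated, so nulls were taken as 0. Gene symbols came from GEO's platform annotation: 17478 probe sets had one, 573 of these had several and were left out, and 16905 remained, 16881 of them matched to RefSeq. Each gene was represented by its brightest probe set (12690 genes), as log2(intensity + 16), centred on each array's median, and the upper 60% by mean over the 30 arrays were tested. The authors' deposited intensity was used without further background correction. limma 3.58.1 in R 4.3.3 (lmFit, eBayes with trend, Benjamini-Hochberg, two-sided, threshold 0.05) was fitted to the 6 HCT116 arrays, with genotype, time and genotype by late hypoxia as terms. H1299 was fitted with HCT116 over 10 arrays, and a fit of the 4 hypoxic HCT116 arrays was added after the data were seen. With 1 array per group the number of arrays limits the precision. The code was tested on simulated data. The members and lists were chosen with earlier results of these data known. Named genes were the 10 largest in each direction listed on all 6 arrays, the 10 p53 targets and 2 genes of every other list with the largest interaction, 2 on each side of the limit and 10 called genes. Promoters came from RefSeq (GRCh38.p14). Alternatives were the pseudocount, centring, filter, probe set rule, null rule and fit terms.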

Additional observations from a re-analysis of the deposited data

Results flagged for a closer look

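The p53 interaction differed between HCT116 and H1299 by limma's test of the difference for 226 genes (2.97% of those tested). The difference is HCT116 minus H1299, each as the change with p53 minus the change without p53. The arrays labelled H1299 p53+ went against their hypoxia labels, so line and label cannot be told apart in any of these values. The hypoxia and stress genes had differences of 4.40 for TRIB3, 3.57 for SLC7A11, 2.49 for SDF2L1, 2.46 for GYS1, 2.36 for NDRG1, 1.99 for SLC2A3 and 1.33 for CANX. Their HCT116 interactions were small beside these, from -0.59 for SLC7A11 to 0.57 for GYS1, so most of each value came from the H1299 arrays. DUSP1 differed by 2.81 and the cholesterol gene MVD by 0.80. The cell division genes had differences of -5.55 for KIF20A and -3.43 for TOP2A, of which the HCT116 interactions were -0.90 and -0.79. No direction is read from these values. Genes high on the p53-null HCT116 0 h array differed by 1.13 for SENP1, 1.01 for INTS13, 0.94 for SLC36A4, 0.90 for CCDC57, 0.87 for SRRM2, 0.77 for AP1B1 and 0.63 for CFAP410. Samples far from their own group could not be looked for, since each group holds 1 array.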

How the results depend on the processing

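No paired analysis was possible because the groups compared share fewer than 2 replicate numbers, and leaving out a replicate was not possible with 1 array per group. The 28 positive genes became 14 with a pseudocount of 64, 55 with no filter and 60 at 24 h alone. The 15 negative genes became 3 and 1 with pseudocounts of 32 and 64, 9 after quantile normalization, 80 with no filter, 1 with the filter on the HCT116 arrays, 8 among genes listed on all 6 arrays, and 40 and 47 at 12 h and 24 h alone. DDB2 remained past 1 except with a pseudocount of 64 (0.79 at 24 h), and the filter on the HCT116 arrays left it out. The 128 interaction calls by limma became 196 with a pseudocount of 64, 55 without centring, 593 with no filter, 0 without a trend (998 at an unadjusted p under 0.05), 0 with the mean over probe sets (1087 at an unadjusted p under 0.05) and 6 without the time term. Positive calls were 85.9% of all calls, 96.4% without centring (53 against 2) and 48.9% with no filter (290 against 303). The 17 calls on the hypoxic arrays became 45 with a pseudocount of 64, 42 among genes listed on all 6 arrays, 221 with no filter, and 0 without centring (886 at an unadjusted p under 0.05), after quantile normalization (909), with the mean over probe sets (898) or without a trend (838). Over those settings the adjusted p of DDB2 there ran to 0.159. The 481 H1299 calls became 308 without centring, 1104 with no filter, 264 with the mean over probe sets and 132 without a trend. The 226 calls between lines became 110, 132, 828 and 89 without centring, after quantile normalization, with no filter and with the mean over probe sets. Of 477 pairs of a named gene and a setting, 418 kept their side of the threshold and direction, 43 lost the call, 16 gained it and 0 turned direction. These pairs leave out the fits without a trend and without the time term, which called 0 and 6 genes in all. The cause of these moves was not tested. Low intensity limits the 15 negative genes.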

Other observations

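The stress gene lists had negative medians at both times, where all tested genes had 0.00 and 0.01. The endoplasmic reticulum chaperones (13 tested), heat shock genes (13 tested) and ATF4 stress genes (21 tested) had medians of -0.10, -0.09 and -0.04 at 12 h and -0.11, -0.10 and -0.06 at 24 h. Negative at both times were 9 of 13, 8 of 13 and 10 of 21, against 36.0% of all tested genes, and the chaperones' median interaction averaged over the 2 times was -0.20. The chaperones' median genotype difference was 0.23, 0.12 and 0.12 at 0, 12 and 24 h, with 11 of 13 higher in p53 wild-type cells each time. For the ATF4 stress genes it was 0.12, 0.08 and 0.07. By median these 2 lists were thus not lower in p53 wild-type cells in hypoxia. For the heat shock genes it was -0.05, -0.01 and -0.13. SLC7A11, the cystine importer, read 523, 696 and 441 at 0, 12 and 24 h in p53-null cells, against 767, 710 and 383 in p53 wild-type cells (limma adjusted p = 0.0684). SDF2L1, an endoplasmic reticulum chaperone cofactor, read 152, 305 and 232 in p53-null cells, against 141, 442 and 301 in p53 wild-type cells (limma adjusted p = 0.124). SLC7A11 was thus higher in p53 wild-type cells at 0 h and lower at 24 h, and SDF2L1 was higher in p53 wild-type cells at both hypoxic times, with neither past the threshold.

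The 15 tested genes of cholesterol and fatty acid synthesis had medians of -0.11 at 12 h and 0.07 at 24 h. INSIG1, which restrains cholesterol synthesis, read 69, 227 and 222 in p53-null cells, against 66, 113 and 154 in p53 wild-type cells, an interaction of -0.84 and -0.39 (limma adjusted p = 0.267). MVD, an enzyme of the mevalonate pathway, was called positive, at 569, 473 and 471 in p53-null cells, against 414, 500 and 495 in p53 wild-type cells (limma mean 0.55 ± 0.0899 SE, adjusted p = 0.0473). For MVD the difference lay on the 0 h arrays, 1 per genotype, and the hypoxic arrays were close. SDC1, a cell-surface heparan sulphate proteoglycan, chosen after its values were seen, read 381, 513 and 549 in p53-null cells, against 273, 292 and 291 in p53 wild-type cells. Every p53 wild-type SDC1 value was below every p53-null value (hypoxic limma difference -0.82 ± 0.0597 SE, adjusted p = 0.0221).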
